A study of Homo sapiens with 32 samples.

Results

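The sites described here are the transcription start sites that responded early and stayed high when LNCaP prostate cancer cells were given R1881, a synthetic androgen. Members were chosen from the R1881 time course by their normalised tag level (RPM, tags scaled to a common library total), averaged over both replicates of a time with 1 RPM added. A member reached at least 2 times its 0 h value at 3 h and again at 12 h, at least 4 times that value at 48 h and again at 72 h, and a mean of at least 10 RPM at 48 h. In all, 114 of 19534 sites met these criteria, which was 1.19% of the 9557 sites with a 48 h mean of at least 10 RPM. The values at 0, 3, 12, 48 and 72 h chose the members, so those values are given as a description with no test. The tests below rest on the DHT and bicalutamide libraries, and on the contrast of 18 h with 6 h of R1881.

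The assay was CAGE, which traps the cap of an RNA and reads its first bases, and a tag thus maps the first base of a transcript. The R1881 table held 14 LNCaP libraries, at 0, 3, 6, 12, 18, 48 and 72 h with 2 replicates each. The second table held 18 libraries, 9 of BicR and 9 of LNCaP cells, with 1 library each for DHT plus bicalutamide, DHT, bicalutamide and the ethanol vehicle at 24 h and 6 h, and 1 library before treatment. DHT was given at 10 nM and bicalutamide at 1 µM. The sample characteristics give R1881 at 1 nM, whereas the treatment text gives 10 nM, so its dose is uncertain. All cells were kept beforehand in phenol-red-free medium with 2.5% charcoal-stripped serum, which removes most steroid hormone. LNCaP is an established human prostate cancer line, and the labels do not say how the BicR line was made. The time course had no vehicle library after 0 h, so R1881 and time in culture cannot be told apart there. The labels do not say whether replicates came from separate cultures, so p-values measure only the spread between these libraries.

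The androgen receptor is a ligand-activated transcription factor. When an androgen binds it, the receptor moves to the nucleus, binds DNA at response elements in promoters and more distant enhancers, and raises or lowers transcription from nearby start sites. Dihydrotestosterone (DHT) is the main natural androgen of the prostate, R1881 is a synthetic androgen that cells break down slowly, and bicalutamide competes with androgens for the receptor's ligand pocket and is used against prostate cancer. In LNCaP the receptor carries a mutation in the ligand-binding domain that widens the range of ligands that activate it. No gene name comes with the sites, so each one is called by its chromosome and position in the hg19 build, no gene or role is assigned, and markers of prostate or other cell types were not read.

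Depth differed strongly between libraries. The second table held 4139807 to 7753336 tags per library, and those of the R1881 time course 128463 to 3837493. Replicate 1 was the shallower one at every time. It was shallowest at 18 h and 6 h, with 128463 and 140956 tags, so that 3 tags were worth 19.4 RPM at 18 h and 17.1 RPM at 6 h. At the times that the rule used, replicate 1 held 319523 to 1075743 tags and replicate 2 held 2157500 to 3837493. There 1 tag of replicate 1 was worth 2.08 RPM at 3 h and 2.66 RPM at 12 h. For a site with no tag at 0 h, 1 such tag was enough to meet the threshold of that time. Over all sites the replicates correlated at 0.603 at 18 h and 0.623 at 6 h, against 0.837 to 0.920 at the other times. In the second table the BicR library with DHT plus bicalutamide at 6 h stood apart, and 220 of 221 sites that were nearly empty elsewhere reached 1 RPM in it. The LNCaP libraries with bicalutamide and with DHT plus bicalutamide at 6 h held 158 and 47 of these 221 sites, and no member was among them.

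The median fold of the members over 0 h rose up to 12 h, was similar at 18 h and was highest at 48 h. The rule itself set a minimum fold at 3, 12, 48 and 72 h. The median fold over 0 h, on the RPM plus 1 scale, was 3.17 after 3 h, 3.89 after 6 h, 7.07 after 12 h, 7.01 after 18 h, 9.91 after 48 h and 8.49 after 72 h. Over the 9557 sites with a 48 h mean of at least 10 RPM the same medians lay between 0.888 and 1.07. Of the 114 members, 94 reached 2 times their 0 h value at 6 h, and 108 did at 18 h. The rule did not use the 6 h and 18 h libraries, but it did use the 0 h values of these folds. The share of all sites reaching 2-fold at these times was not counted. Both 3 h libraries lay above both 0 h libraries for 97 members, against 13.5% of the sites with a 48 h mean of at least 10 RPM, and 3 h was used by the rule. Both 6 h libraries did so for 71 members, against a background of 12.8%, and both 18 h libraries for 91, against 15.6%. All of these counts, the folds at 6 h and 18 h included, share the 0 h libraries with the rule, so nothing was read from them.

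The members took up a larger share of all tags in the table at every later time than at 0 h, but the share did not grow at every step. They held 0.199% and 0.169% of the tags at 0 h (replicates 1 and 2), 0.522% and 0.668% after 3 h, 0.888% and 0.591% after 6 h, 1.64% and 1.38% after 12 h, 1.83% and 1.23% after 18 h, 2.86% and 1.89% after 48 h, and 2.78% and 1.64% after 72 h. The replicates overlapped between 48 h and 72 h and not between 0 h and any later time. The rule used the 0, 3, 12, 48 and 72 h values, so the separation from 0 h was not read as a result. The level was uneven among members. The 12 highest members held 68.9% of the summed 48 h level, 31 members had a 48 h mean of 100 RPM or more, and 36 lay under 20 RPM. At 0 h, 7 members had no tag in either library and a further 24 had 1 to 3 tags over both. For those 7 the 48 h mean was at least 6.28 to 11.5 times the level of 3 tags per library at 0 h, a lower bound that covers counting error only.

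**Figure D1:**
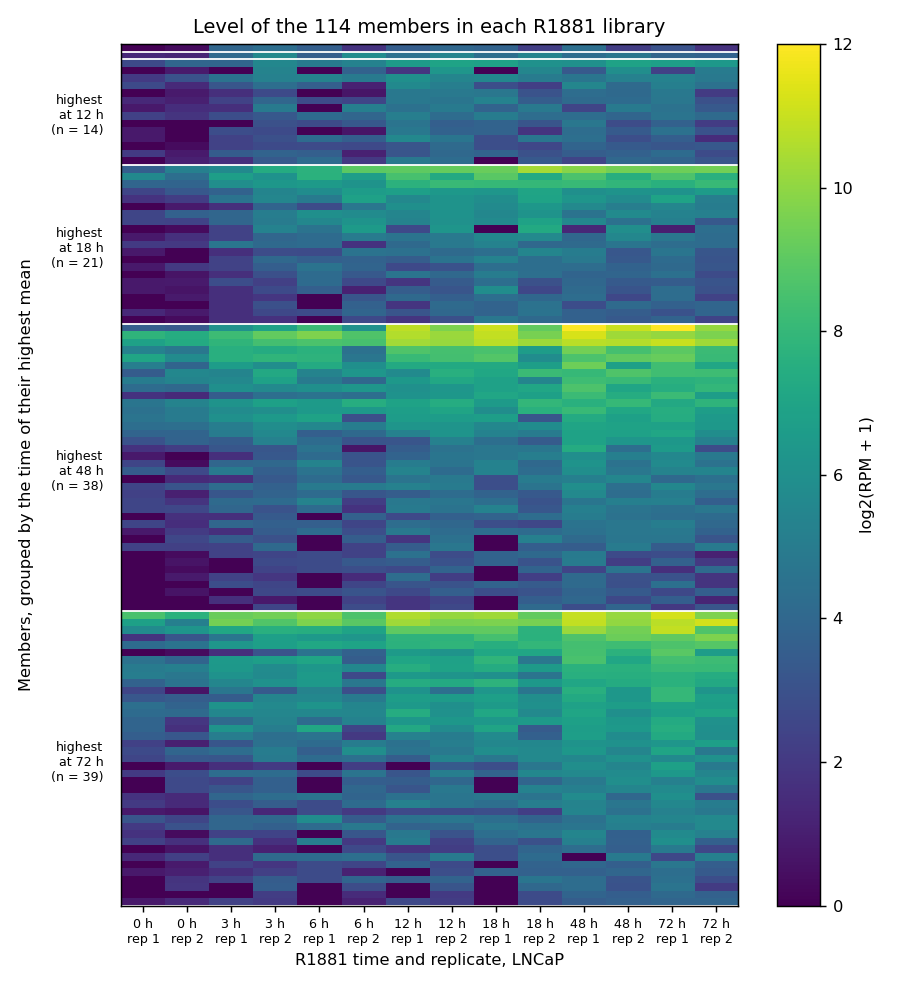
Level of each of the 114 members (rows) in each of the 14 LNCaP libraries of the R1881 time course (columns), as log2(RPM + 1), with rows grouped by the time of the highest mean and white lines between groups. The highest mean fell at 3 h for 1 member, at 6 h for 1, at 12 h for 14, at 18 h for 21, at 48 h for 38 and at 72 h for 39, and the 6 h and 18 h replicate 1 columns hold dark cells where a shallow library had no tag.

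The highest member lay on the minus strand of chromosome 11 at position 134095354, in a cluster at chr11:134094966-134095596. Its replicates had 11.1 and 9.09 RPM at 0 h, 66.7 and 115 RPM at 3 h, 291 and 65.3 RPM at 6 h, 1791 and 793 RPM at 12 h, 2165 and 560 RPM at 18 h, 5761 and 2129 RPM at 48 h, and 4525 and 1096 RPM at 72 h. Every later library was above both 0 h libraries, and from 12 h on replicate 1 was more than 2 times replicate 2. The 48 h value on the RPM plus 1 scale was 356 times that at 0 h.

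The next members differed in how much of their level was present before R1881. The minus-strand site at chr6:34523732-34524182 (position 34524105) had 223 and 169 RPM at 0 h, 2460 and 1250 RPM at 48 h, and 1087 and 805 RPM at 72 h. The plus-strand site at chr2:223725531-223725985 (position 223725753) had 115.5 and 162.3 RPM at 0 h, 1305 and 1130 RPM at 12 h, and 1706 and 1624 RPM at 48 h. These sites were already well used at 0 h and had smaller folds than the chromosome 11 site, at 9.41 times and 11.9 times the 0 h value at 48 h. The minus-strand site at chr21:42879811-42880186 (position 42880084) was quicker, with 111 and 35.5 RPM at 0 h, 723 and 429 RPM at 3 h, and 1879 and 1050 RPM at 48 h. Its 3 h libraries were 7.78 times the 0 h value, against 2.16 times and 2.02 times for the chromosome 6 and chromosome 2 sites.

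The other members among the 12 highest covered a wide range of folds. On the minus strand of chromosome 8, position 80993064 had 2.37 and 7.99 RPM at 0 h, 25.0 and 108 RPM at 3 h, 397 and 623 RPM at 48 h, and 543 and 814 RPM at 72 h. On the minus strand of chromosome 6, position 35656691 had 11.1 and 36.4 RPM at 0 h, 609 and 1343 RPM at 18 h, and 903 and 687 RPM at 48 h. In both, every library after 0 h was above both 0 h libraries. Position 205633975 on the minus strand of chromosome 1 moved least of the 12 at 48 h, at 4.91 times its 0 h value, with 131 and 54.5 RPM at 0 h, 217 and 25.1 RPM at 6 h, and 385 and 531 RPM at 48 h. Its 6 h replicates fell on either side of both 0 h libraries. The remaining 5 were position 51376691 of chromosome 19, position 81040158 of chromosome 16, position 228871225 of chromosome 1 and position 92219926 of chromosome 9, all on the plus strand, with position 139163501 of chromosome 4 on the minus strand. Their 48 h values on the RPM plus 1 scale were 5.43, 14.3, 15.7, 15.3 and 11.4 times those at 0 h.

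**Figure D2:**
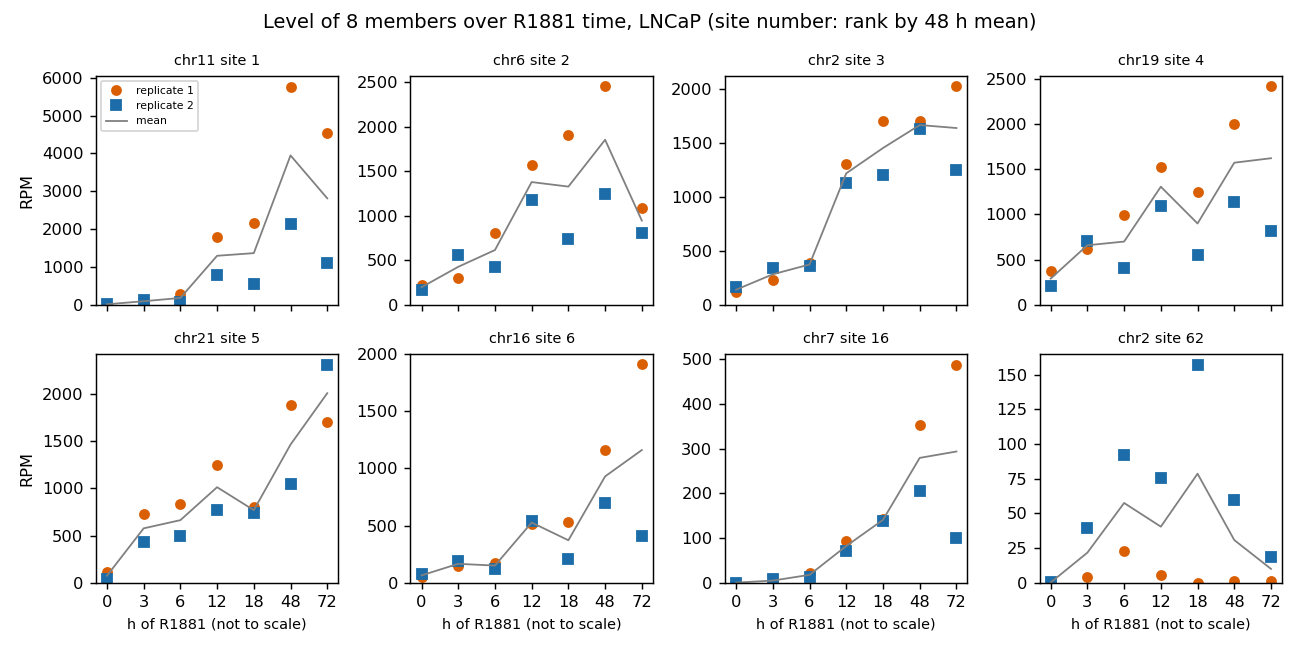
RPM of 8 members in each LNCaP library against hours of R1881 (points for replicates, grey line for their mean, axis not to scale), with the site number giving the rank by 48 h mean: the 6 highest members, the minus-strand chromosome 7 site at position 87936205 (site 16) and the minus-strand chromosome 2 site at position 179770153 (site 62). The first 7 sites were higher in every library from 12 h on than in either 0 h library, whereas site 62 was high in replicate 2 and near 0 in replicate 1 at 18, 48 and 72 h.

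The course after 12 h took several forms. In 36 members the 48 h value was at least 2 times the 12 h value, in 76 it lay within 2-fold of it, and in 2 it was at most 0.5 of it. The median ratio of 72 h to 48 h was 0.961, with a range of 0.254 to 1.63. An example of continued growth was position 87936205 on the minus strand of chromosome 7 (chr7:87936131-87936408), with 0 and 0.275 RPM at 0 h, 2.08 and 7.37 RPM at 3 h, 93.0 and 71.1 RPM at 12 h, and 353 and 206 RPM at 48 h. An early plateau, chosen after its values were seen, was position 49833987 on the minus strand of chromosome 8, with 1.58 and 1.38 RPM at 0 h, 16.7 and 47.7 RPM at 3 h, 18.3 and 25.5 RPM at 48 h, and 14.2 and 12.9 RPM at 72 h. Both of these were above both 0 h libraries at every later time.

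The replicates did not carry every member equally. Applied to replicate 1 alone, the criteria held for 131 sites, 73 of them members. Replicate 2 alone gave 94 sites, 67 of them members, and 38 members met the criteria in each replicate. The largest disagreement between replicates at a single time after 0 h, on the log2(RPM + 1) scale and chosen after its values were seen, was at position 179770153 on the minus strand of chromosome 2. It had 22.8 and 92.2 RPM at 6 h, 0 and 157 RPM at 18 h, 1.53 and 60.0 RPM at 48 h, and 1.01 and 18.9 RPM at 72 h (replicates 1 and 2).

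Membership changed gradually at the thresholds. Just inside lay position 118604492 of chromosome 5 on the plus strand, at 4.01 times its 0 h value at 72 h, position 14871886 of chromosome 5 on the minus strand, at 2.01 times at 3 h, and position 24421462 of chromosome 3 on the minus strand, at a 48 h mean of 10.05 RPM. Just outside lay position 123872534 of chromosome 10 at 1.998 times at 3 h, position 107383394 of chromosome 7 at a 48 h mean of 9.97 RPM, and position 234862297 of chromosome 2 at 3.98 times at 72 h, all on the plus strand. With the early and the sustained criterion separated, 291 sites met the 48 h and 72 h thresholds and the level. Of these 114 were the members, 58 missed both early thresholds and are called late-only sites below, and 119 met one early threshold.

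Some members had another member nearby, and how often other sites lie as close to each other was not counted. Of the 114, 34 had another member within 100 kb, in 14 loci, and linking members at that distance left 94 loci in all. The most crowded loci were chr1:205631513-205649212 with 4 members, all on the minus strand, chr20:56283714-56338488 with 4 members, 1 on the plus and 3 on the minus strand, chr3:195632842-195635010 with 3 members and chr19:51308026-51376761 with 3 members. Members of a locus cannot be counted as independent of each other. On the same strand, their tags can come from neighbouring starts of the same transcripts, which was not tested. Chromosome 13 held 7 members among 156 sites with a 48 h mean of at least 10 RPM, or 4.49%, against 1.19% over all chromosomes. The median cluster width was 222.5 bp in members and 172 bp in the 9557 sites, and 12.3% of members were over 500 bp wide, against 2.98% of the 9557 sites. Strand was uneven, with 45 members on the plus and 69 on the minus strand, where 50.3% of the 9557 sites were on the plus strand. These features were not tested.

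Sites beside a member were often higher at 48 h too. On the opposite strand, within 3000 bp upstream of 25 members, lay 25 sites that were not members, and 17 of these were at least 2-fold higher at 48 h than at 0 h, with a median of 2.91, against 9.81% of all 19534 sites. On the same strand, within 10000 bp of 35 members, lay 47 sites that were not members, and 32 of them were at least 2-fold higher at 48 h, with a median of 2.83. Of the 9557 sites with a 48 h mean of at least 10 RPM, 12.1% were at least 2-fold higher at 48 h. A pair read in opposite directions lay at chr16:84764127-84767022, where the 48 h mean was 64.2 RPM for the higher member, position 84764217 on the minus strand, and 33.7 RPM for the lower one, position 84766814 on the plus strand.

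Between 6 h and 18 h, the times that the rule did not use, most members had higher values at the later time and none passed the test. The log2 change of 18 h against 6 h had a median of 0.98 over the 114 members and -0.04 over the 15999 sites tested, and 100 members were higher at 18 h. The 58 late-only sites had a similar median of 0.86, and 51 of them were higher at 18 h, so this rise was not particular to the members. Without replicate 2 at 18 h the member median was 0.48, and 78 members were higher. No member passed an adjusted p of 0.05 in edgeR's quasi-likelihood test, where the background of sites called higher was also 0.0%, and DESeq2 called no member either. At an unadjusted p under 0.05 there were 19 members of 114, against 9 of 58 late-only sites and 2.94% of all sites. The smallest p belonged to position 223725753 of chromosome 2, with 1705 and 1199 RPM at 18 h and 382 and 363 RPM at 6 h, which gave a log2 change of 1.97 (SE 0.42, adjusted p = 1). Its 18 h libraries did not overlap its 6 h libraries.

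The second table asked whether the same start sites answer DHT, and whether bicalutamide changes that, in BicR and LNCaP cells. It lists single positions, so a member was followed only where its name was present: 50 of 114 members, or 43.9%, against 67.6% of the 9557 sites. The followed members were the higher ones, with a median 48 h level of 74.2 RPM, against 19.3 RPM for the 64 others. For 20 of those 64 another position of the second table lay inside the cluster, and for 44 there was none. With 1 library per line, treatment and time, the 24 h and 6 h libraries of a treatment stood in for replicates in the fit, with a term for time in each line. All 50 members passed the filter on low counts.

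DHT raised most members in BicR cells. Of the 50 members, 39 were called higher and none lower with DHT against ethanol at an adjusted p under 0.05 (edgeR's quasi-likelihood test), against a background of 2.22% of 13214 sites called higher. The median log2 change was 2.38 over the members and -0.01 over all sites tested, and 47 of 50 members were above 0. In LNCaP cells 3 members were called higher and none lower, against a background of 0.121%. The LNCaP median was 1.10, against -0.01 over all sites, and 49 of 50 members were above 0. At an unadjusted p under 0.05 there were 32 LNCaP members, against 5.57% of all sites. Dropping any 1 of the 4 LNCaP libraries with DHT or ethanol ended the 3 LNCaP calls, while leaving out the BicR library with DHT plus bicalutamide at 6 h gave 12 calls. In BicR the count fell to 24 without the ethanol library at 6 h.

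**Figure D3:**
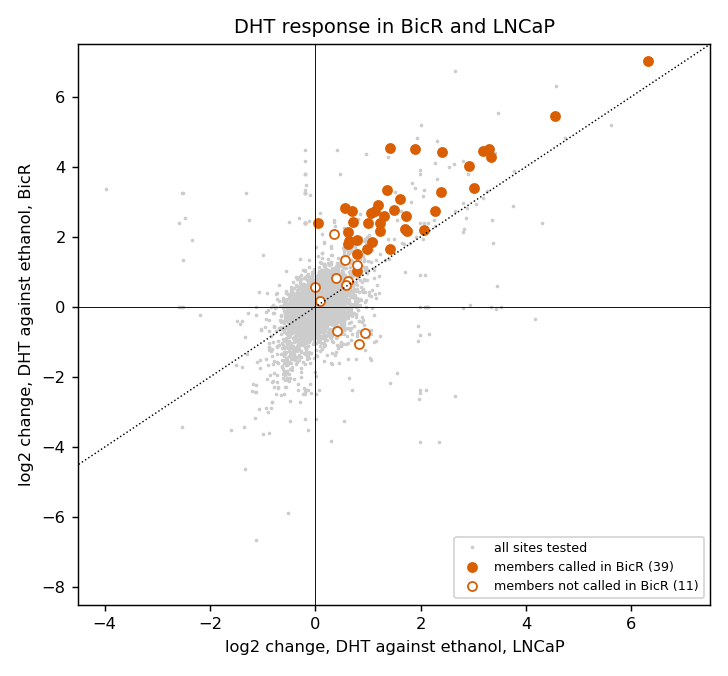
The log2 change with DHT against ethanol in BicR (vertical axis) and in LNCaP (horizontal axis) for all 13214 sites tested (grey) and the 50 members (orange, filled for the 39 called in BicR and open for the other 11), with a dotted line of equal change. Of the 50 members, 47 lie above the dotted line, 49 lie right of 0 and 47 lie above 0.

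The 3 members called in both lines were strongly raised. Position 80993064 of chromosome 8 had 86.5 and 58.8 RPM with DHT and 2.41 and 4.81 RPM with ethanol in BicR (24 h and 6 h), which gave a log2 change of 4.27 (SE 0.44, adjusted p = 0.000878). In LNCaP it had 40.8 and 41.3 RPM with DHT and 3.41 and 5.19 RPM with ethanol, a log2 change of 3.33 (SE 0.44, adjusted p = 0.018). In neither line did the DHT and ethanol libraries overlap. Position 42880084 of chromosome 21 had 248 and 246 RPM with DHT and 14.7 and 15.5 RPM with ethanol in BicR, a log2 change of 4.01 (SE 0.43, adjusted p = 0.000894). In LNCaP it had 245 and 300 RPM with DHT and 38.0 and 35.7 RPM with ethanol, a log2 change of 2.91 (SE 0.40, adjusted p = 0.018). The DHT levels of this site overlapped between the lines and its ethanol levels did not. Position 205633975 of chromosome 1 had 163 and 190 RPM with DHT and 40.2 and 34.8 RPM with ethanol in BicR, a log2 change of 2.21 (SE 0.30, adjusted p = 0.00252). In LNCaP it had 61.6 and 72.7 RPM with DHT and 15.7 and 17.3 RPM with ethanol, a log2 change of 2.06 (SE 0.32, adjusted p = 0.0322). The levels of this site did not overlap between the lines with either treatment, and the difference in log2 change was 0.14 (SE 0.44).

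Other members with the smallest p in BicR were called there and not in LNCaP. Position 134095354 of chromosome 11, the highest member under R1881, had 86.5 and 147 RPM with DHT and 5.76 and 4.03 RPM with ethanol in BicR, a log2 change of 4.50 (SE 0.56, adjusted p = 0.00161). In LNCaP it had 12.5 and 24.2 RPM with DHT and 4.68 and 5.04 RPM with ethanol, a log2 change of 1.90 (SE 0.60, adjusted p = 0.619). The DHT libraries lay above the ethanol libraries in both lines, and the BicR values with DHT above all LNCaP values. Position 11679944 on the plus strand of chromosome 2 had 33.0 and 47.2 RPM with DHT and 2.14 and 1.43 RPM with ethanol in BicR, a log2 change of 4.44 (SE 0.47, adjusted p = 0.000894). Position 223725753 of chromosome 2 had 1300 and 893 RPM with DHT and 258 and 230 RPM with ethanol in BicR, a log2 change of 2.13 (SE 0.28, adjusted p = 0.00213). In LNCaP the site at position 223725753 had 237 and 267 RPM with DHT and 184 and 154 RPM with ethanol, a log2 change of 0.62 (SE 0.27, adjusted p = 0.852). The remaining sites of this group were position 46742655 of chromosome 13, position 84764217 of chromosome 16 and position 9143812 of chromosome 2, all on the minus strand, with log2 changes of 2.38, 2.75 and 2.92 in BicR and 1.00, 1.49 and 1.18 in LNCaP.

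**Figure D4:**
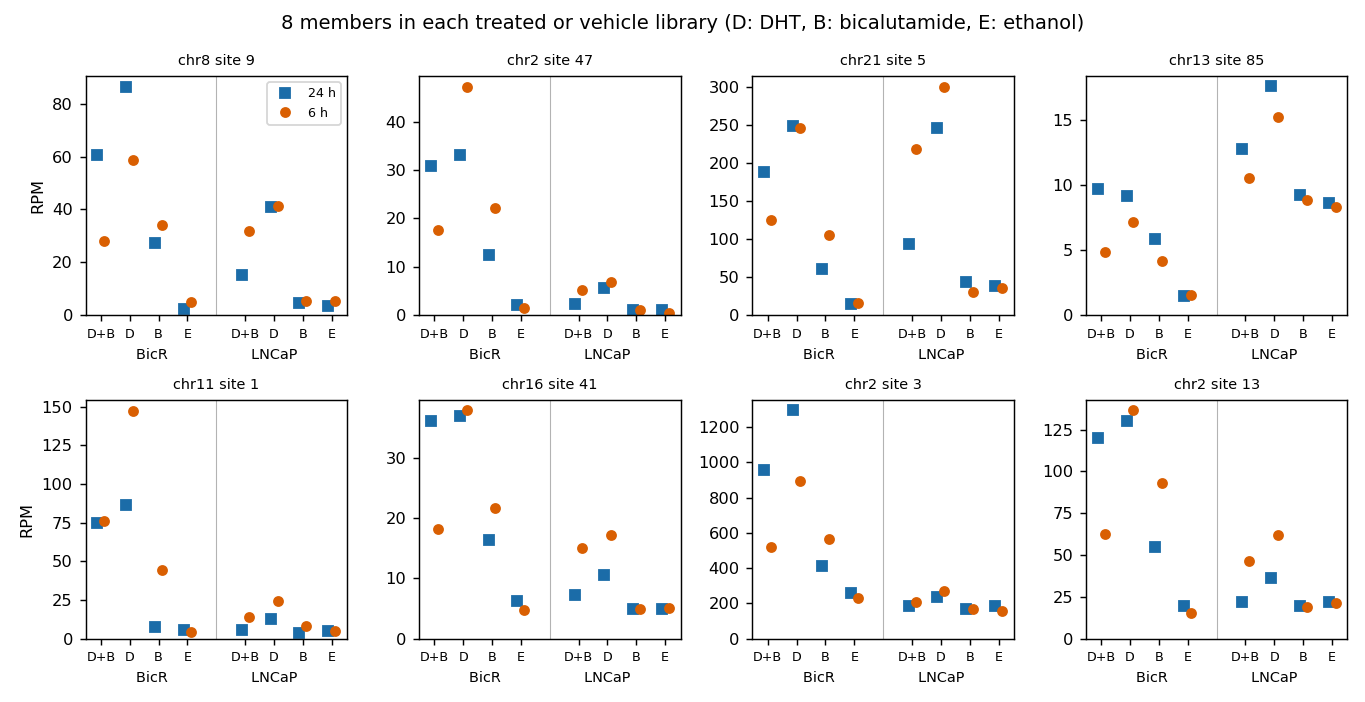
RPM of the 8 members with the smallest p for DHT in BicR, in each BicR library (left of the grey line) and LNCaP library (right), for DHT plus bicalutamide, DHT, bicalutamide and ethanol at 24 h (blue squares) and 6 h (orange circles), with site numbers giving the rank by 48 h R1881 mean. In all 8 sites the BicR libraries with DHT lie above those with ethanol, and site 85 (position 46742655 of chromosome 13) is the one with higher levels in LNCaP for every treatment.

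Members with almost no tags in ethanol were measured by counts. Position 179770153 of chromosome 2 had 270 tags over both DHT libraries and 2 over both ethanol libraries in BicR, a ratio of 145 after scaling (exact 95% interval 39.8 to 1206, counting error only). In LNCaP it had 23 tags with DHT and 0 with ethanol, which was at least 3.16-fold higher against 3 tags per library. Position 11679775 of chromosome 2 had 34 tags with DHT and 1 with ethanol in LNCaP, a ratio of 28.8 (interval 4.84 to 1171). With such members at their bound the median log2 changes stayed 2.38 in BicR and 1.10 in LNCaP.

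A few members did not follow DHT. In BicR 3 members had log2 changes below 0, and none of these passed the test. Position 14502415 on the minus strand of chromosome 11 had 8.05 and 1.02 RPM with DHT and 12.0 and 4.16 RPM with ethanol (24 h and 6 h), which gave a log2 change of -1.06 (SE 0.62, adjusted p = 0.475). Position 202272233 on the minus strand of chromosome 2 had 32.1 and 9.004 RPM with DHT and 36.8 and 19.7 RPM with ethanol, a log2 change of -0.75 (SE 0.55, adjusted p = 0.603). Position 47288070 on the minus strand of chromosome 19 had 54.8 and 30.8 RPM with DHT and 88.9 and 46.1 RPM with ethanol, a log2 change of -0.68 (SE 0.46, adjusted p = 0.556). In BicR all 3 were lower with DHT than with ethanol of the same time, at 24 h and at 6 h. All 3 were also higher at 24 h than at 6 h under both treatments, so the ranges pooled over times overlapped for each. In LNCaP the lowest change was at position 53111548 on the plus strand of chromosome X, with 13.7 and 9.02 RPM with DHT and 12.3 and 10.97 RPM with ethanol, a log2 change of -0.004 (SE 0.28, adjusted p = 1).

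The direction was shared across lines and times. At 24 h and at 6 h, in BicR and in LNCaP, 40 of 50 members were higher with DHT than with ethanol of the same line and time, against 8.39% of all sites. On the RPM plus 1 scale 16 members were at least 2-fold higher in all 4 pairs. The share over all sites was not counted, and it can be no more than the 0.865% that were at least 2-fold higher in LNCaP at 6 h. In BicR 35 members were at least 2-fold higher with DHT at 24 h, against 1.75% of all sites, and 46 at 6 h, against 2.58%. In LNCaP 21 members were at least 2-fold higher at 24 h, against 1.47%, and 27 at 6 h, against 0.865%. The median log2 ratio in BicR was 1.81 at 24 h and 2.45 at 6 h, and in LNCaP it was 0.89 at 24 h and 1.07 at 6 h. There was 1 library per pair, so these counts have no replicate check.

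Late-only sites gave a reference for the early criterion. Of the 58, 23 were in the second table. None of these 23 was at least 2-fold higher with DHT at 6 h in either line. At 24 h in BicR there was 1 of 23, or 4.35%, against 70% of members. At 24 h in LNCaP the shares were alike, with 10 of 23, or 43.5%, against 42% of members. In the fit over both times, 2 of the 23 were called higher with DHT in BicR and 0 in LNCaP, against 2.22% and 0.121% of all sites. The median log2 ratio of the 23 was -0.21 at 24 h and -0.06 at 6 h in BicR, and 0.71 at 24 h and -0.11 at 6 h in LNCaP. The difference between members and late-only sites was not tested.

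The fitted DHT change was larger in BicR than in LNCaP for 47 of 50 members, and no single difference passed the test. The log2 response in BicR minus that in LNCaP had a median of 0.94 over the members and 0.01 over all sites. Without the BicR ethanol library at 6 h the member median was 0.59, and 40 members were above 0. No site at all was called (background of sites called higher, 0.0%, edgeR's quasi-likelihood test), and DESeq2 called no member. At an unadjusted p under 0.05 there were 18 members, against 5.71% of all sites. The member with the smallest p was position 223725753 of chromosome 2, with a difference of 1.51 (SE 0.38, adjusted p = 0.68).

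With the vehicle alone, members differed between BicR and LNCaP about as often as all sites did. At an unadjusted p under 0.05 (edgeR's quasi-likelihood test) there were 10 of 50 members, or 20%, against 21.6% of all sites. With ethanol, BicR against LNCaP gave a median log2 change of -0.06 over the members, 3 members called lower and none higher, where the background was 2.94% of sites called lower and 2.53% called higher. The sign of the member median was not stable: it was 0.35 without the BicR ethanol library at 6 h, 0.14 without the LNCaP one at 24 h, 0.06 without the BicR library with DHT plus bicalutamide at 6 h, and -0.27 without either of the other ethanol libraries. Position 46742655 of chromosome 13 had 1.47 and 1.56 RPM in BicR and 8.59 and 8.30 RPM in LNCaP (24 h and 6 h), which gave a log2 change of -2.53 (SE 0.32, adjusted p = 0.00344). Position 101420035 on the plus strand of chromosome 15 had 3.35 and 2.60 RPM in BicR and 12.8 and 12.7 RPM in LNCaP, a log2 change of -1.82 (SE 0.30, adjusted p = 0.00872). Position 156261278 on the minus strand of chromosome 1 had 5.49 and 4.03 RPM in BicR and 23.5 and 15.4 RPM in LNCaP, a log2 change of -2.06 (SE 0.43, adjusted p = 0.0194). The lines did not overlap at any of the 3. The count ranged between 1 and 5 as single libraries were left out, with 1 without the BicR ethanol library at 6 h and 5 without the BicR library with DHT plus bicalutamide at 6 h.

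Bicalutamide alone raised a few members in BicR, and nearly all had higher fitted values with it. Against ethanol, 4 of 50 members were called higher and none lower in BicR, against a background of 0.159%, and the median log2 change was 1.41 over the members and 0.00 over all sites. At an unadjusted p under 0.05 there were 36 members, against 6.09% of all sites, and 48 of 50 were above 0. The 4 were position 80993064 of chromosome 8, with 27.1 and 34.0 RPM with bicalutamide and 2.41 and 4.81 RPM with ethanol, a log2 change of 3.14 (SE 0.45, adjusted p = 0.0272), and 3 sites with log2 changes of 3.32 (position 11679944 of chromosome 2), 2.52 (position 42880084 of chromosome 21) and 1.76 (position 205633975 of chromosome 1). The ratio was larger at 6 h: 15 members were at least 2-fold higher at 24 h, against 0.617% of all sites, and 36 at 6 h, against 1.05%. The median log2 ratio was 0.69 at 24 h and 1.59 at 6 h. The calls depended on single libraries, since none was left without the bicalutamide library at 6 h or without either ethanol library, and 15 were made without the bicalutamide library at 24 h, or without the DHT plus bicalutamide library at 6 h.

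In LNCaP, no member passed the test with bicalutamide alone. None was called (edgeR's quasi-likelihood test), 0 of 50 reached an unadjusted p under 0.05, against 1.94% of all sites, and DESeq2 called none. The background of sites called higher was 0.00757%. The median log2 change was 0.12 over the members and 0.00 over all sites. Leaving out the LNCaP ethanol or bicalutamide libraries in turn gave member medians of 0.02 to 0.26. Position 80993064 of chromosome 8 had 4.37 and 5.21 RPM with bicalutamide and 3.41 and 5.19 RPM with ethanol in LNCaP, and its ranges overlapped. Whether the bicalutamide response differed between the lines was not tested.

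**Figure D5:**
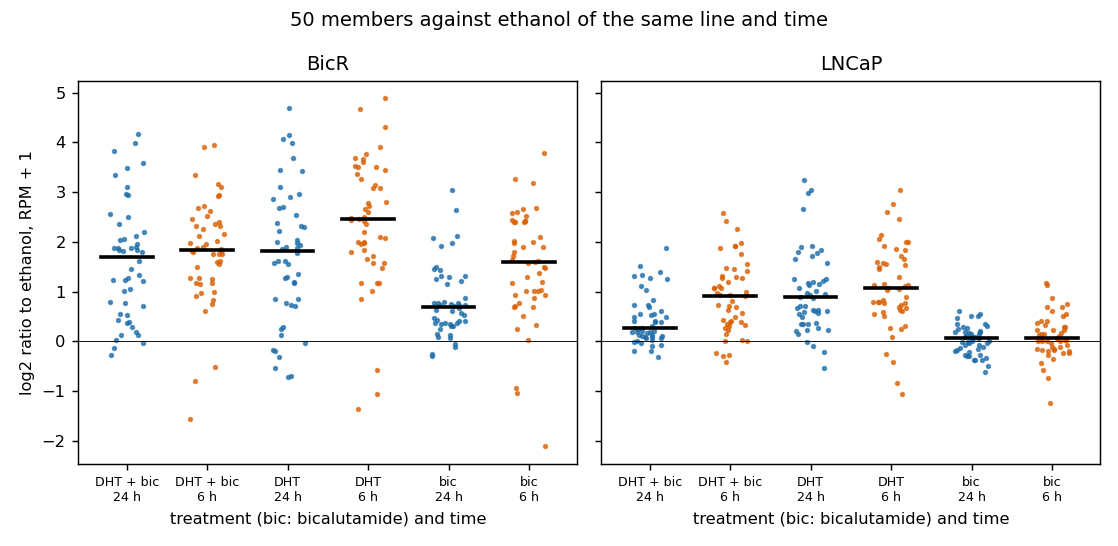
The log2 ratio to ethanol of the same line and time, on the RPM plus 1 scale, for the 50 members in BicR (left) and LNCaP (right) with DHT plus bicalutamide, DHT and bicalutamide at 24 h (blue) and 6 h (orange), with black bars for medians. With bicalutamide alone the median was 0.69 at 24 h and 1.59 at 6 h in BicR, and 0.07 at both times in LNCaP.

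With bicalutamide added to DHT, most members had somewhat lower values than with DHT alone, and none passed the test. Against DHT alone, the median log2 change with DHT plus bicalutamide was -0.34 over the members in BicR and -0.33 in LNCaP, where all sites had 0.00 in both lines, and 39 members in BicR and 47 in LNCaP were below 0. These medians moved with single libraries: in BicR the value was -0.10 without the 6 h library with both drugs, -0.75 without the 24 h one and -0.22 without DHT at 6 h, and in LNCaP it was -0.54 without the 6 h library with both drugs and -0.20 without the 24 h one. No member was called in either line by edgeR's quasi-likelihood test or by DESeq2, and the background of sites called lower was 0.0% in BicR and 0.0% in LNCaP. At an unadjusted p under 0.05 there were 6 members in BicR, against 8.48% of all sites, and 5 in LNCaP, against 1.84%. By time, 2 members in BicR were at least 2-fold lower at 24 h, against 0.135% of all sites, and 16 at 6 h, against 0.91%. In LNCaP 8 members were at least 2-fold lower at 24 h, against 0.241%, and 0 at 6 h, against 0.165%. Position 42880084 of chromosome 21 had 188 and 124 RPM with DHT plus bicalutamide and 248 and 246 RPM with DHT in BicR (24 h and 6 h), and 93.3 and 217 RPM with DHT plus bicalutamide and 245 and 300 RPM with DHT in LNCaP. Its libraries did not overlap between these treatments in either line.

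The BicR library with DHT plus bicalutamide at 6 h, which stood apart, was high at some members, which were named after their values were seen. Position 3827400 on the minus strand of chromosome 10 had 32.3 RPM there and 2.86 to 5.95 RPM in the 7 other treated or vehicle BicR libraries. Position 73633142 on the plus strand of chromosome 13 had 35.7 RPM there and 1.43 to 11.5 RPM in those 7. Without the 3 libraries that held tags at nearly empty sites, 39 members were called with DHT in BicR and 5 in LNCaP.

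Summed over the 50 members, the level kept the same order of treatments in both lines at 24 h and 6 h. In LNCaP, however, the sums with bicalutamide and with ethanol lay close together. In BicR the sum was 2934 and 2465 RPM with DHT plus bicalutamide (24 h and 6 h), 3488 and 4209 RPM with DHT, 1500 and 2225 RPM with bicalutamide, and 926 and 729 RPM with ethanol. In LNCaP it was 1027 and 1447 RPM with DHT plus bicalutamide, 1547 and 1811 RPM with DHT, 794 and 800 RPM with bicalutamide, and 782 and 751 RPM with ethanol. The BicR sum with bicalutamide alone at 6 h exceeded every LNCaP sum. Single sites weigh heavily in these sums: position 223725753 of chromosome 2 gave 1300 of the 3488 RPM with DHT in BicR at 24 h. In the libraries before treatment the sum was 770 RPM in BicR and 682 RPM in LNCaP.

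Members followed through another position inside their cluster widened the picture. With these 20 added, 51 of 70 members were called higher with DHT in BicR, where 2.22% of all sites were, and 5 in LNCaP, where 0.121% were. Position 51376691 of chromosome 19 (chr19:51376578-51376761), the fourth highest member at 48 h, was read at position 51376694. It had 1478 and 1151 RPM with DHT and 138 and 152 RPM with ethanol in BicR (24 h and 6 h), which gave a log2 change of 3.11 (SE 0.37, adjusted p = 0.00118). In LNCaP it had 320 and 306 RPM with DHT and 32.2 and 40.5 RPM with ethanol, a log2 change of 3.19 (SE 0.38, adjusted p = 0.0147). The treatments did not overlap in either line, and the response in BicR minus that in LNCaP was -0.07 (SE 0.49). Position 139163501 of chromosome 4, read at position 139163502, had 184 and 54.0 RPM with DHT and 252 and 114 RPM with ethanol in BicR, a log2 change of -0.82 (SE 0.41, adjusted p = 0.365). It was lower with DHT at both times, and its ranges pooled over times overlapped. Position 81040158 of chromosome 16, read at position 81040157, was called higher with DHT in BicR at a log2 change of 3.98. Position 87936205 of chromosome 7 was the highest member with no position in the second table.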

How the data were processed

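CAGE libraries were read on a HeliScope sequencer, per the labels' protocols, and the build was hg19, per the submitters' processing notes. The aligner and the cluster caller are not given in the sources used here. The deposited raw tag counts are whole numbers per site. The deposited RPM values are those counts times 1 factor per library, per the file headers and the values. Members were chosen on RPM; tests ran on the counts in R 4.3.3 with edgeR 4.0.16 (TMM, filterByExpr with a minimum count of 10, quasi-likelihood F test, Benjamini-Hochberg over all sites tested), and DESeq2 1.42.0 was an alternative. The second table was fitted over 16 libraries with a coefficient per line and treatment and a 24 h term per line. The R1881 table was fitted with a coefficient per time. Scripts were tested on simulated data. Members, lists and tests were chosen with earlier results of these data known.

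In the R1881 table, deviations of libraries with the same replicate number from their time means correlated at 0.142 to 0.566 for each of the 21 combinations of times. Replicate 1 was also the shallower library at every time, and whether the correlation reflects paired cultures was not tested. The main fit had no replicate term, and the replicate block was an alternative. No 2 libraries were identical. The text names the 12 members with the highest 48 h mean, up to 8 members called per comparison by smallest p, up to 4 with the most negative DHT change, up to 4 of the highest that the second table lacks, and 3 on either side of the thresholds. No sequence is printed, because no hg19 genome was used here. Intervals and floors cover counting error only. Alternatives were another normalization, filter, time term, pseudocount and threshold, the replicate block, and libraries left out.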

Additional observations from a re-analysis of the deposited data

How the results depend on the processing

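The number of members depended most on the constant added to RPM: 42 with 5 added and 27 with 10, all among the 114. It was 127 with TMM-scaled CPM (109 shared), 78 with a 48 h minimum of 20 RPM, 168 with early thresholds of 1.5, 94 to 131 in single replicates, and 121 when the minimum applied to the mean plus 1, an alternative added after seeing the data. For DHT in LNCaP, DESeq2 called 9 members, leaving out the compared libraries gave 0 each time, leaving out the BicR library with DHT plus bicalutamide at 6 h gave 12, and 5 were called without the 3 libraries with tags at nearly empty sites and, separately, with overlapping positions added, both added after seeing the data. For DHT in BicR, leaving out single libraries gave 24 to 40. For bicalutamide in BicR, DESeq2 called 17, dropping the time term gave 0, leaving out single libraries gave 0 to 15, leaving out the 3 libraries gave 10, and adding overlapping positions gave 8. For DHT plus bicalutamide against DHT in BicR, leaving out single compared libraries gave member medians from -0.75, without the 24 h library with both, to -0.10, without the 6 h one. Without that 24 h library some members were called, in both directions, as were many other sites. That fit had 1 library with both drugs left, so its calls were not read. For BicR against LNCaP with ethanol, single libraries left out gave 1 to 5, and overlapping positions gave 5. The fit with the replicate block, in which the numbers pair the libraries, called 0 members for 18 h against 6 h, as did the fit without it. Putting the libraries before treatment into the fit, also added after seeing the data, changed no count by over 1.5 times. No single member call changed direction. The member median of BicR against LNCaP with ethanol, -0.06, turned positive without the BicR ethanol library at 6 h (0.35), the LNCaP ethanol library at 24 h (0.14), the BicR library with DHT plus bicalutamide at 6 h (0.06) or the 3 libraries with tags at nearly empty sites (0.03). Without those 3 libraries the median of DHT plus bicalutamide against DHT was -0.09 in BicR and -0.54 in LNCaP. Of 198 single member calls recomputed, 163 kept their side of the threshold and 35 lost it. Depth limits the 6 h and 18 h libraries of replicate 1 most, and 18 members had under 10 tags at 48 h in replicate 1.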
